A study of Mus musculus with 11 samples.

Results

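The genes described here encode 10 proteins that neutrophils store in granules or in the cytosol: Elane, Mpo, Prtn3, Ctsg, Ltf, Lcn2, Camp, Ngp, S100a8 and S100a9. They were taken by symbol from the annotation of the array platform, with the probe set of highest mean over all arrays where a gene had several. Each of the 10 genes had exactly 1 probe set that named it alone, out of 18193 genes with such a probe set. The first 4 are called early granule genes below and the other 6 late granule genes.

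Neutrophils make their granules in order as they mature in the bone marrow. The azurophil granules, filled at the promyelocyte stage, hold myeloperoxidase and the serine proteases. The specific granules, filled from the myelocyte stage on, hold lactoferrin, lipocalin-2 and cathelicidin, and the calcium-binding pair S100a8 and S100a9 (calprotectin) accumulates in the cytosol of the maturing and mature cell.

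RNA of 6 sorted mouse cell populations was hybridised to 11 Affymetrix arrays, 2 per population and 1 for Nes+ BMSCs. CD45+ cells were hematopoietic cells of the bone marrow, and all the other populations were sorted as negative for the blood cell marker CD45, the endothelial marker CD31 and the erythroid marker Ter119. BM-SSCs were CD105+CD140a+ marrow cells carrying the Mx1-Cre-induced Tomato label and Nestin-GFP, and P-SSCs were CD105+CD140a+ periosteal cells with the same Mx1 label and no osteocalcin-GFP. Their donors, Mx1-Cre; Rosa-Tomato mice with Nestin-GFP or Ocn-GFP, had been irradiated with 9.5 Gy at 4 weeks of age, given wild-type marrow, and injected 6 to 8 weeks later with pIpC, which induces Mx1-Cre, at 25 mg/kg over 10 days. Mx1-Cre also acts in blood-forming cells, and host blood cells that outlast the irradiation would carry the label. The paper puts host hematopoietic cells at under 1% by the time of injection, and their part in these arrays was not tested. Nes+ BMSCs were Nestin-GFP+ CD105+CD140a+ marrow cells with or without the Mx1 label, CD51+ BMSCs were marrow cells sorted on the integrin CD51, and Osx+ cells carried the osterix reporter of osteoblast precursors. For CD51+ BMSCs the paper also describes selection for CD105 and CD140a, which their titles do not give, so that part of the sort was not settled. The source field of both Nes+ and Osx+ cells gives periosteal tissue, whereas the Nes+ title says marrow and the Osx+ titles name no tissue, so the tissue of these cells was not settled. Male and female mice were used, and the paper describes the labelled cDNA of the populations as 2 biological repeats. Nothing in the labels ties an array to a given animal or pool. The p-values therefore measure the spread between these arrays, and how much of it is technical is not known.

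Array 2 of the P-SSCs stood apart from the rest. Its median over 9 ribosomal protein genes was 7.25 on the log2 scale, against 11.76 to 12.99 on the other 10 arrays, and its beta-actin 3′ probe set read 7.81 against 12.78 to 14.25. Array 2 of the BM-SSCs was next lowest in both. The counts of passing members, the medians of the further granule genes and the correlations are given with and without these arrays, and the other values include them.

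Stretches of the promoters are shown because the early and late genes moved apart between populations, as described further on. The sequences are from RefSeq on GRCm38.p6, where all 10 genes matched, and lie within the 250 bases before each start, written 5′ to 3′ on the strand of the gene. In the early genes, capitals mark GAGGAAG, a core of the kind bound by ETS factors such as PU.1, and CAACGG, of the kind bound by MYB. The windows are chr10:79886209-79886284 (plus strand), chr11:87793534-87793584 (plus strand), chr10:79879554-79879634 (plus strand) and chr14:56102766-56102808 (minus strand).
Elane: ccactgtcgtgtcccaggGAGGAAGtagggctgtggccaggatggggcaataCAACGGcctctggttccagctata
Mpo: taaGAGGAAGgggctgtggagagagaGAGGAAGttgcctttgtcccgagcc
Prtn3: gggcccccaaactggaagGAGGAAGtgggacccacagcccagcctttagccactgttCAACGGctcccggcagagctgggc
Ctsg: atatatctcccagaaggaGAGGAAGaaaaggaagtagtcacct

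In the late genes, capitals mark TTGCNNAA on either strand, a form of the C/EBP site. The windows are chr9:111019199-111019242 (plus strand), chr2:32387930-32387973 (minus strand), chr9:110419779-110419807 (plus strand) and chr3:90695932-90695971 (minus strand).
Ltf: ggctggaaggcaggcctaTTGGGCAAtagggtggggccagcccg
Lcn2: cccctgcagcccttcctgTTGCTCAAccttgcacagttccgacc
Ngp: ttatgtcaccggcagttcTTGGGCAAggc
S100a9: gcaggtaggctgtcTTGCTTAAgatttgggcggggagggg

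The letters GAGGAAG were noticed by reading these early promoters, so their presence in 4 of 4 early genes follows from the choice and is not a result. They also stood in 2 of 6 late genes (Lcn2 and S100a8) and in 10.6% of all 32851 promoter windows of this length, with both strands searched. The longer GAGGAAGT was in 3 of 4 early and 1 of 6 late genes and in 2.44% of windows, and the shorter GGAAG, contained in both, in 4 of 4 and 5 of 6 and in 64.1%. The C/EBP letters TTGCNNAA were in 0 of 4 early and 4 of 6 late genes and in 9.56% of windows. They too were settled once the sequences had been seen. The form first considered, TTNNGNAA, was in 0 of 4 early and 5 of 6 late genes and in 36.8% of windows, and the full palindrome TTGCGCAAT was in none of the 10 genes and in 0.0487%. CAACGG stood in Elane and Prtn3 alone among the 10 genes and in 4.05% of windows, and its shorter form AACGG in the same 2 genes and in 14.5%. The TATA box letters TATAAA were in 1 of 4 early genes (Ctsg), 1 of 6 late genes (S100a8) and 12.4% of windows. These matches describe letters in a window and were not tested as binding sites. Prtn3 and Elane are direct neighbours on chromosome 10, and S100a8 and S100a9 on chromosome 3, so the members are not 10 independent loci. On chromosome 9, 8 protein-coding genes lie between Camp and Ngp and 20 between Ngp and Ltf.

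The populations differed most plainly in whether the late genes kept the level of CD45+ cells. In CD51+ BMSCs all 6 late genes were within 0.31 log2 units of CD45+ cells, while the 4 early genes were lower by 2.75 to 3.54. In Osx+ cells early and late genes were both low. In BM-SSCs, P-SSCs and the single Nes+ array the mean of each late gene lay between those of CD51+ and Osx+ cells, and late genes were on average closer to CD45+ cells than early ones. The mean over the early genes did not lie between on the Nes+ array, at -6.35 against -6.02 in Osx+ cells. In such bulk samples fewer cells of a type and less RNA per cell cannot be told apart.

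**Figure D1:**
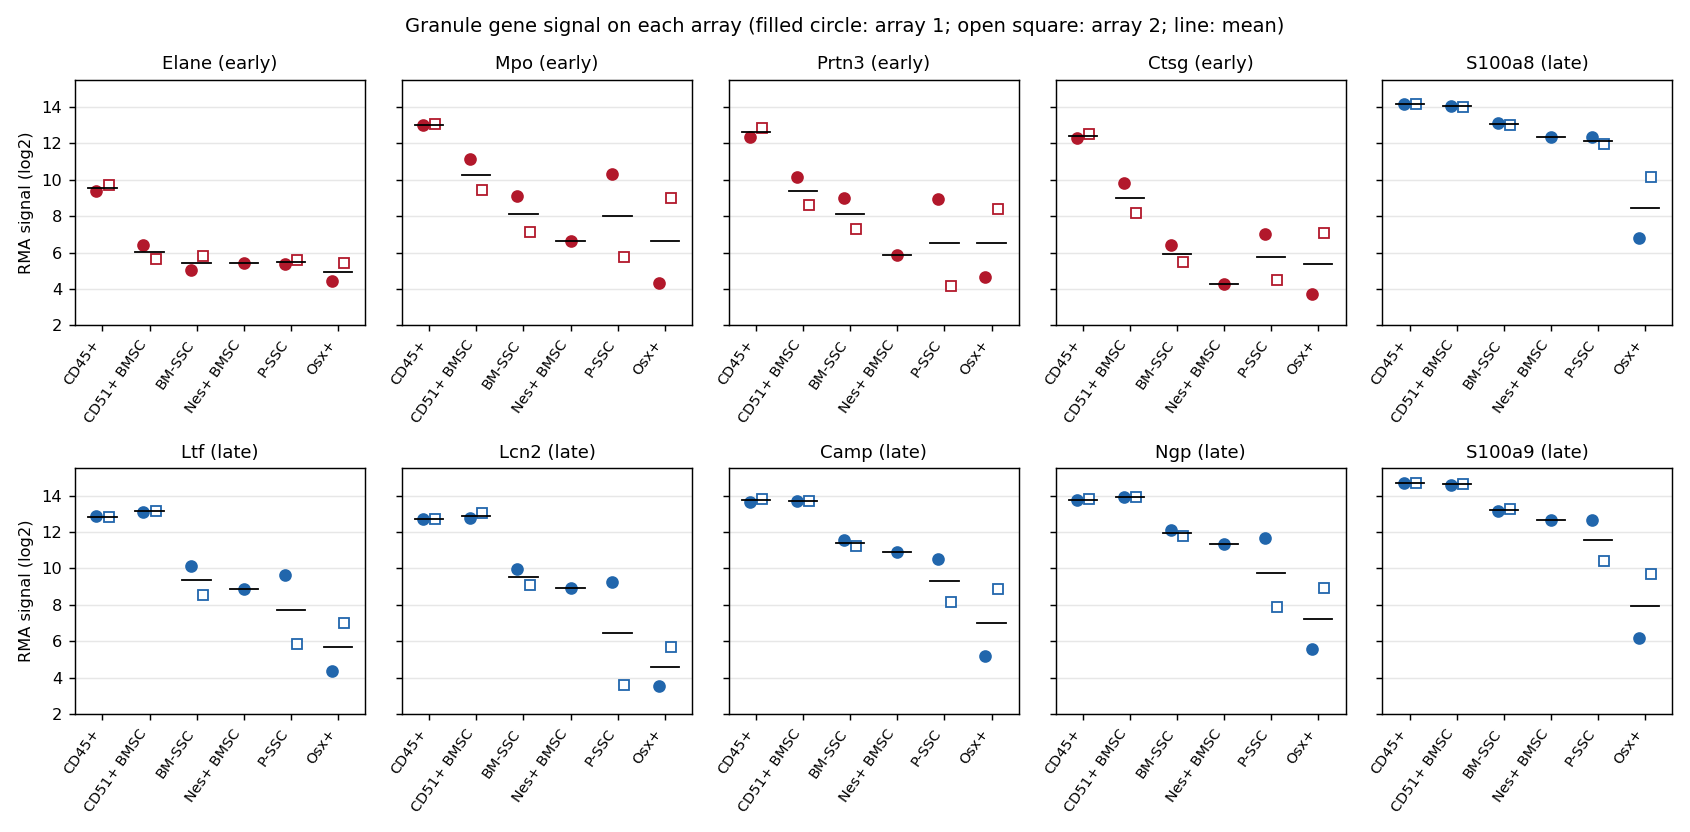
Deposited RMA signal (log2) of each granule gene in the 6 populations, with early genes in red and late genes in blue, filled circles for array 1, open squares for array 2 and a line for the mean. The late genes of CD51+ BMSCs sit level with CD45+ cells, whereas the early genes are lower, and the Osx+ arrays differ from each other in every gene.

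Elane, which encodes neutrophil elastase, had a log2 signal of 9.41 and 9.73 on the CD45+ arrays, 6.41 and 5.64 on the CD51+ arrays, 5.06 and 5.80 in BM-SSCs, 5.37 and 5.61 in P-SSCs, 5.42 in Nes+ BMSCs, and 4.44 and 5.43 in Osx+ cells. The CD45+ arrays stood above every other array, and the remaining populations largely overlapped. Elane fell in every comparison with CD45+ cells. The difference was -3.54 ± 0.48 (SE, log2) in CD51+ BMSCs, -4.14 ± 0.48 in BM-SSCs, -4.08 ± 0.48 in P-SSCs, -4.15 ± 0.58 in Nes+ BMSCs and -4.63 ± 0.48 in Osx+ cells, with limma adjusted p of 0.0081, 0.00304, 0.00327, 0.00997 and 0.00114.

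Mpo, which encodes myeloperoxidase, read 12.99 and 13.06 on the CD45+ arrays, 11.12 and 9.44 in CD51+ BMSCs, 9.10 and 7.12 in BM-SSCs, 10.29 and 5.77 in P-SSCs, 6.64 in Nes+ BMSCs, and 4.34 and 8.98 in Osx+ cells. CD45+ cells were again above all others, but the arrays of one population differed by up to 4.65. Mpo passed the test in no comparison with CD45+ cells, with differences from -2.75 ± 1.81 in CD51+ BMSCs to -6.39 ± 2.21 in Nes+ BMSCs.

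Prtn3, which encodes proteinase 3, showed the same spread. It read 12.35 and 12.85 in CD45+ cells, 10.13 and 8.59 in CD51+ BMSCs, 9.0 and 7.28 in BM-SSCs, 8.95 and 4.15 in P-SSCs, 5.87 in Nes+ BMSCs, and 4.67 and 8.41 in Osx+ cells. The CD45+ arrays were highest, and it too passed in no comparison with them (limma adjusted p from 0.063 in P-SSCs to 0.466 in CD51+ BMSCs).

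Ctsg, which encodes cathepsin G, read 12.29 and 12.54 in CD45+ cells, 9.80 and 8.17 in CD51+ BMSCs, 6.41 and 5.47 in BM-SSCs, 7.0 and 4.51 in P-SSCs, 4.26 in Nes+ BMSCs, and 3.72 and 7.05 in Osx+ cells. The CD51+ arrays stood below CD45+ cells and above all other arrays. Ctsg fell against CD45+ cells by 6.48 ± 1.20 in BM-SSCs, 6.66 ± 1.20 in P-SSCs, 8.16 ± 1.47 in Nes+ BMSCs and 7.03 ± 1.20 in Osx+ cells (limma adjusted p of 0.0189, 0.0169, 0.0233 and 0.0104). The difference in CD51+ BMSCs, -3.43 ± 1.20, did not pass (limma adjusted p = 0.182).

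Among the late genes, Ltf encodes lactoferrin, an iron-binding protein of the specific granules. It read 12.87 and 12.81 in CD45+ cells, 13.13 and 13.16 in CD51+ BMSCs, 10.16 and 8.55 in BM-SSCs, 9.61 and 5.86 in P-SSCs, 8.85 in Nes+ BMSCs, and 4.36 and 7.02 in Osx+ cells. Both CD51+ arrays were the highest of all. Ltf fell by 5.10 ± 1.28 in P-SSCs and by 7.15 ± 1.28 in Osx+ cells against CD45+ cells (limma adjusted p = 0.0475 and 0.0126).

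Lcn2, which encodes lipocalin-2, a protein that binds bacterial siderophores, read 12.74 on each CD45+ array, 12.80 and 13.02 in CD51+ BMSCs, 9.98 and 9.07 in BM-SSCs, 9.26 and 3.60 in P-SSCs, 8.92 in Nes+ BMSCs, and 3.51 and 5.68 in Osx+ cells. The order was that of Ltf, with the P-SSC arrays 5.66 apart. Lcn2 fell by 6.32 ± 1.59 in P-SSCs and by 8.15 ± 1.59 in Osx+ cells (limma adjusted p = 0.0481 and 0.0183).

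Camp, the precursor of the cathelicidin antimicrobial peptide, read 13.66 and 13.84 in CD45+ cells, 13.72 and 13.69 in CD51+ BMSCs, 11.54 and 11.21 in BM-SSCs, 10.50 and 8.13 in P-SSCs, 10.89 in Nes+ BMSCs, and 5.16 and 8.89 in Osx+ cells. CD45+ and CD51+ arrays overlapped and stood above the rest. Ngp, neutrophilic granule protein, a cystatin-like protein, read 13.74 and 13.79, 13.93 and 13.93, 12.13 and 11.80, 11.67 and 7.87, 11.35, and 5.55 and 8.91 in the same order of populations. Again the CD51+ arrays were highest, without overlap. Against CD45+ cells Camp fell by 6.72 ± 1.17 and Ngp fell by 6.53 ± 1.33 in Osx+ cells (limma adjusted p = 0.0111 and 0.0214), and neither passed in the other populations.

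S100a8 read 14.19 and 14.17 in CD45+ cells, 14.03 and 14.03 in CD51+ BMSCs, 13.14 and 13.02 in BM-SSCs, 12.33 and 11.94 in P-SSCs, 12.36 in Nes+ BMSCs, and 6.81 and 10.14 in Osx+ cells. S100a9 read 14.68 and 14.72, 14.59 and 14.66, 13.16 and 13.29, 12.65 and 10.42, 12.67, and 6.16 and 9.68 in that order. For both genes the Osx+ arrays lay below all others, and there S100a8 fell by 5.70 ± 0.90 and S100a9 by 6.78 ± 1.10 against CD45+ cells (limma adjusted p = 0.00754 and 0.00841). S100a9 was the brightest of all probe sets on both CD45+ arrays and on CD51+ array 2, and S100a8 ranked 3 to 7 on the CD45+ and CD51+ arrays. How far signals so near the top of the scale could still separate was not tested. Nor was it tested for Camp and Ngp, which read 13.66 to 13.93 on the CD45+ and CD51+ arrays. The probe set of S100a8 is of a kind that may match more than 1 transcript.

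**Figure D2:**
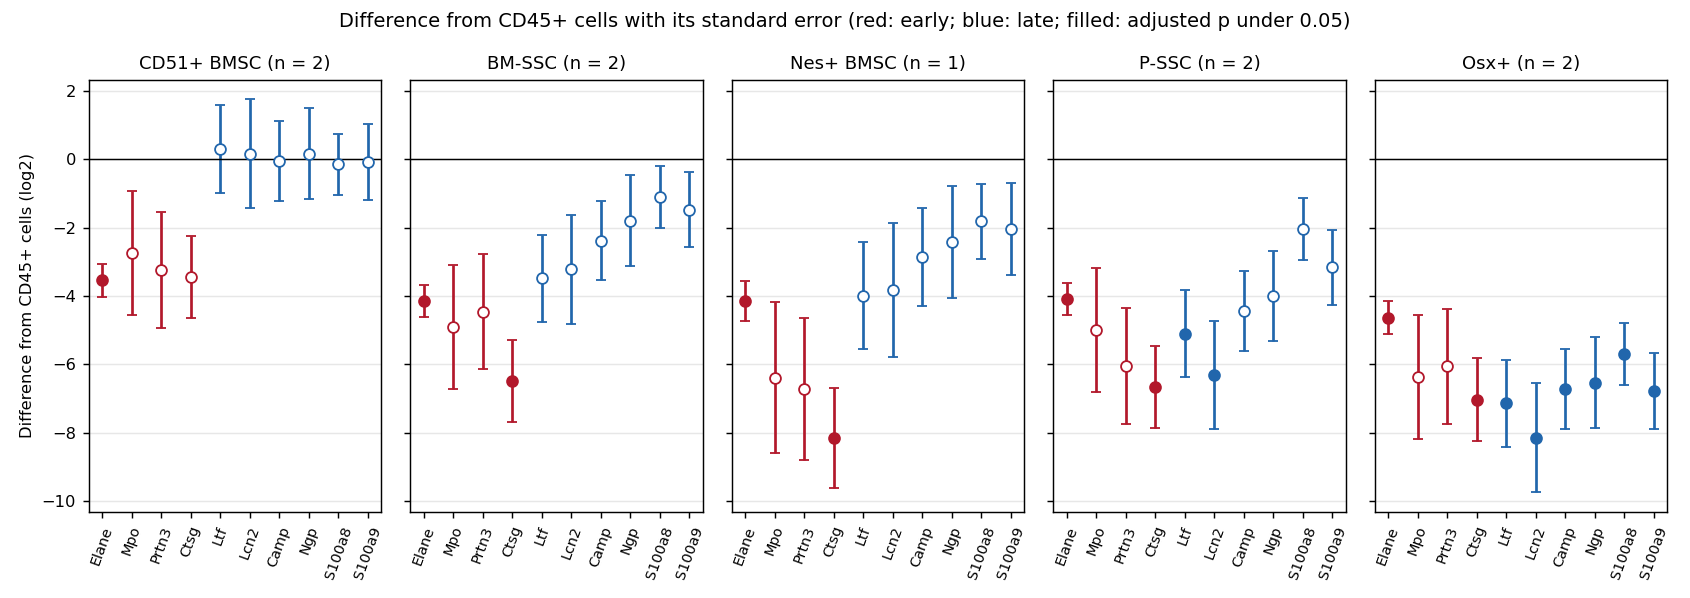
Difference of each population from CD45+ cells (log2) with its standard error, early genes in red and late genes in blue, filled where the limma adjusted p was under 0.05. Of the 10 genes 1 is filled for CD51+ BMSCs, 2 each for BM-SSCs and Nes+ BMSCs, 4 for P-SSCs and 8 for Osx+ cells.

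Set against CD45+ cells, 8 of 10 members fell in Osx+ cells, where 5.62% of all probe sets fell. In P-SSCs 4 members fell, beside 7.29% of all probe sets. In BM-SSCs 2 fell, Elane and Ctsg, beside 6.26%, and the same 2 genes fell on the Nes+ array, beside 4.49%. In CD51+ BMSCs 1 fell, Elane, beside 2.9%. Without array 2 of both SSC populations these counts were 10, 5, 4, 6 and 3, but the background then rose to 23.4%, 26%, 22%, 30.4% and 21.7%, and P-SSCs and BM-SSCs were left with 1 array each, assumed to vary like the other populations.

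The near equality of late genes in CD51+ BMSCs and CD45+ cells carried wide intervals in the fit over all arrays. The 95% interval of the difference ran from -2.67 to 3.28 for Ltf, -3.53 to 3.87 for Lcn2, -2.76 to 2.67 for Camp, -2.93 to 3.25 for Ngp, -2.24 to 1.95 for S100a8 and -2.64 to 2.49 for S100a9, which leaves room for changes of several fold either way. That fit takes the spread of each gene from all populations, the P-SSC arrays included. In a fit of the 4 CD45+ and CD51+ arrays alone, all 4 early genes passed as lower, with limma adjusted p from 5.6e-05 for Elane to 0.00342 for Mpo, beside 25% of all probe sets, and 0 of 6 late genes passed (1 did unadjusted, Ltf). The widest late interval was then -0.15 to 0.48, for Lcn2.

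The CD51+ cells had been sorted as CD45-, yet Ptprc, the gene of CD45, read 10.23 and 10.17 on their arrays, against 12.06 and 12.05 in CD45+ cells and 2.42 to 7.42 elsewhere. All 12 pan-leukocyte genes were below CD45+ cells, with a median difference of -1.65, and 1 of 12 passed (Vav1, -2.06), beside 2.9% of all probe sets passing as lower. The part that such cells have in the late gene signal was not tested.

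The difference between early and late genes was set out per array, as the mean difference from CD45+ cells over the 4 early genes minus that over the 6 late genes. It is a description with no test. It was -2.58 and -4.03 on the CD51+ arrays, -2.53 and -2.98 in BM-SSCs, -1.34 and -1.20 in P-SSCs and -3.53 on the Nes+ array. In Osx+ cells it was 0.79 and 0.84. Early genes were thus further below CD45+ cells than late genes on every array of 4 populations, and slightly less far below on both Osx+ arrays. The 10 genes read 3.51 to 6.81 on Osx+ array 1, whose median over all probe sets was 4.48, and 5.43 to 10.14 on array 2. A signal cannot fall far below such a level. Late genes also started higher, with CD45+ means of 12.74 to 14.70 against 9.57 to 13.03 for early genes. The part of this floor in the Osx+ values was not tested. The value for P-SSCs leaned on calprotectin. With the 4 specific granule genes alone as late genes it was -0.49, against -1.27 with all 6.

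**Figure D3:**
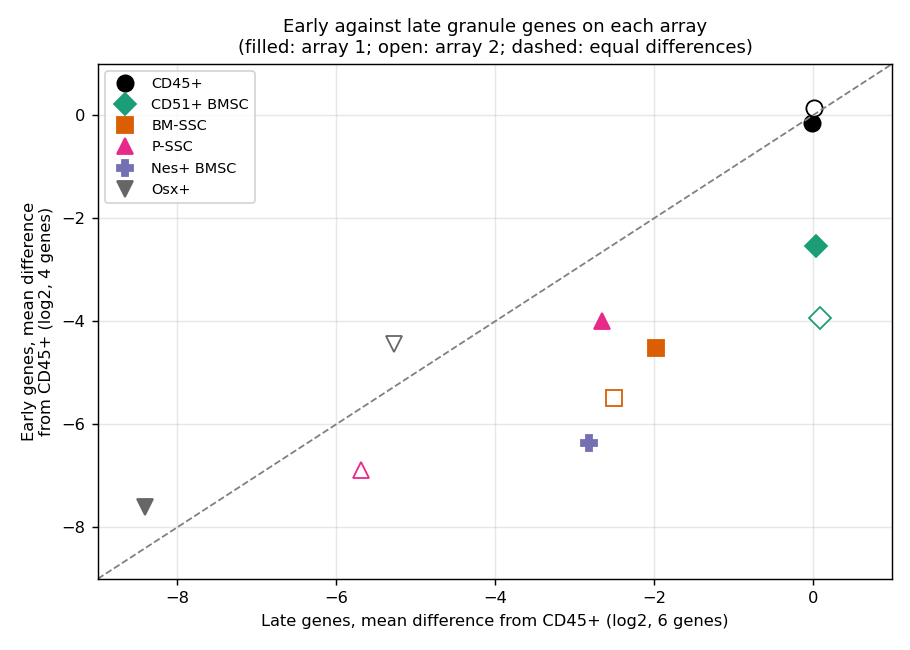
Mean difference from CD45+ cells (log2) over the 6 late genes (horizontal axis) and the 4 early genes (vertical axis) on each array, with filled symbols for array 1, open symbols for array 2 and a dashed line where both are equal. CD51+ arrays lie at 0.04 and 0.09 on the late axis and at -2.54 and -3.94 on the early axis, and only Osx+ arrays and CD45+ array 2 lie above the line.

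Osx+ cells served as the more differentiated bone lineage population. In CD51+ BMSCs 5 members rose against Osx+ cells, beside 1.51% of all probe sets, and all 5 were late genes. Ltf was higher by 7.45 ± 1.28, Lcn2 by 8.31 ± 1.59, Camp by 6.68 ± 1.17, S100a8 by 5.56 ± 0.90 and S100a9 by 6.71 ± 1.10 (limma adjusted p = 0.0283, 0.0444, 0.0303, 0.0224 and 0.0237). Ngp was higher by 6.70 ± 1.33 and just missed the threshold (limma adjusted p = 0.051). The early genes were higher by 1.09 to 3.62 and did not pass.

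In BM-SSCs 0 of 10 members passed against Osx+ cells with limma, beside 0.0311% of all probe sets passing as higher. At an unadjusted p under 0.05, 6 members were higher, beside 2.92%. All 6 were late genes, higher by 3.66 to 5.31, with both BM-SSC arrays above both Osx+ arrays. In P-SSCs 0 passed with limma, beside 0.0466%, and 2 were higher at an unadjusted p under 0.05, beside 8.24% (S100a8 at 3.66 ± 0.90 and S100a9 at 3.62 ± 1.10). Without array 2 of both SSC populations 6 members passed in BM-SSCs, beside 7.15%, and 5 in P-SSCs, beside 12%, all of them late genes.

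Between the stem cell populations no member passed. P-SSCs against BM-SSCs gave 0 of 10 with limma, beside 0% of all probe sets, and 0 at an unadjusted p under 0.05, beside 2.07%. The intervals were wide, for example -4.77 to 0.66 for Camp. Nes+ BMSCs against BM-SSCs gave 0 with limma, beside 0%, and 0 unadjusted, beside 0.835%. Without array 2 of both SSC populations each comparison again gave 0 with limma, beside 2.06% and 27.9%, and the interval of Camp between P-SSCs and BM-SSCs was -4.23 to 2.16. Against CD51+ BMSCs, BM-SSCs gave 0 with limma and 2 unadjusted (Ctsg, -3.05, and Ltf, -3.79), beside 0.591% of all probe sets passing as lower with limma and 7.55% unadjusted. P-SSCs gave 0 with limma and 6 unadjusted, beside 0.591% and 11.2%. Without array 2 of both SSC populations 1 member (Lcn2, -2.93) passed as lower with limma in BM-SSCs, beside 8.6%, and 2 in P-SSCs (Ltf, -3.53, and Lcn2, -3.65), beside 15.9%. These comparisons share their CD51+ arrays.

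Apart from the SSC arrays marked out above, the arrays of Osx+ cells and those of CD51+ BMSCs differed in the granule genes in distinct ways. On Osx+ array 2 all 10 members were higher than on array 1, by 0.99 (Elane) to 4.65 (Mpo), beside 23146 of all 45037 probe sets. No other probe set of the 45037 was higher on array 2 by as much as Mpo, while the largest difference the other way was -5.98. All 12 pan-leukocyte genes were also higher on that array, with a median of 1.61, and Ptprc read 2.42 and 5.07. On CD51+ array 2 the early genes alone were lower, by 0.77 (Elane), 1.68 (Mpo), 1.54 (Prtn3) and 1.63 (Ctsg), while the late genes differed by -0.04 to 0.23. Over all probe sets 48.6% were lower on array 2. Genes of B cells (6 of 7, median -0.77), erythroid cells (6 of 6, -0.54) and monocytes and macrophages (10 of 11, -0.40) were lower on that array too. So were genes of basophils and mast cells (4 of 5, -0.28) and further azurophil granule genes (6 of 8, -0.25), while pan-leukocyte genes were divided (6 of 12, -0.01). Eosinophil genes (4 of 4, median 0.26), mature neutrophil genes (7 of 8, 0.23) and further specific and gelatinase granule genes (9 of 12, 0.19) were higher on it. The part of other blood cells in these differences was not tested.

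**Figure D4:**
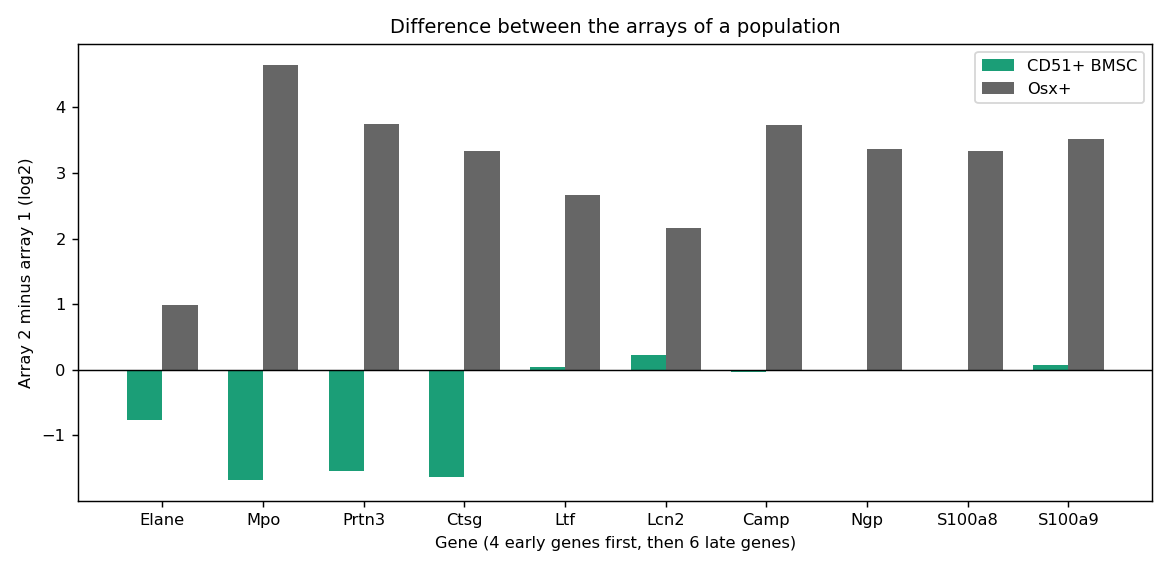
Array 2 minus array 1 (log2) for each granule gene in CD51+ BMSCs (green) and Osx+ cells (grey), with the 4 early genes first. In CD51+ BMSCs the early genes differ by -0.77 to -1.68 and the late genes by -0.04 to 0.23, while in Osx+ cells all 10 genes are higher on array 2.

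Further genes were taken from fixed lists named after these granules. The names are labels, and whether each product is stored in that granule was not checked. In CD51+ BMSCs against CD45+ cells, 3 of 8 further azurophil granule genes fell and 0 rose, beside 2.9% of all probe sets falling. Their median was -2.21, against -0.09 over all probe sets. Those that fell were Nkg7 (-4.68), Ms4a3 (-3.79) and Cst7 (-3.70, encoding cystatin F), while Ctsd, the lysosomal protease cathepsin D, stood at 0.16. Of 12 further specific and gelatinase granule genes 0 passed as lower with limma, beside the same 2.9%, and the median was -0.38. Among them the collagenase Mmp8 differed by -0.68, the gelatinase Mmp9 by -1.11, and Cyba and Cybb, which encode the membrane subunits of the NADPH oxidase, by -1.30 and -1.17. Of 8 mature neutrophil genes 2 fell, Csf3r, the receptor of G-CSF (-1.63), and Fcgr3 (-1.83), again beside 2.9%, and the median was -0.69. Trem1 went the other way, at 10.59 and 10.91 on the CD51+ arrays against 8.96 and 9.11 in CD45+ cells. Cxcr2 was lower, at 6.23 and 6.82 against 8.89 or more in CD45+ cells, and did not pass. Against Osx+ cells 9 of those 12 specific and gelatinase granule genes and 7 of the 8 mature neutrophil genes rose in CD51+ BMSCs, and 1 of 8 azurophil genes did (Serpinb1a, 4.19), where 1.51% of all probe sets rose.

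In the other populations the medians of the further azurophil and the further specific and gelatinase granule genes lay closer together, which was not tested. The further azurophil genes had medians of -4.73 in BM-SSCs, -4.62 in P-SSCs, -4.83 on the Nes+ array and -5.66 in Osx+ cells, with 5 of 8 passing as lower in each. The further specific and gelatinase granule genes had medians of -3.98, -4.95, -4.54 and -5.35, with 8, 9, 9 and 10 of 12 passing. Of all probe sets 6.26%, 7.29%, 4.49% and 5.62% fell in these populations. The azurophil medians without array 2 of both SSC populations were -4.41 in BM-SSCs and -4.49 in P-SSCs, with 7 of 8 passing in each, beside 22% and 26% of all probe sets. Those of the specific and gelatinase granule genes were then -3.38 and -3.97, with 10 and 11 of 12 passing. In BM-SSCs the late members, at a median of -2.80 for the specific granule genes and -1.28 for calprotectin, therefore stood closer to CD45+ cells than this wider list of late granule genes. These medians of late members without array 2 of both SSC populations were -2.45 and -1.28. That comparison of medians was not tested.

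**Figure D5:**
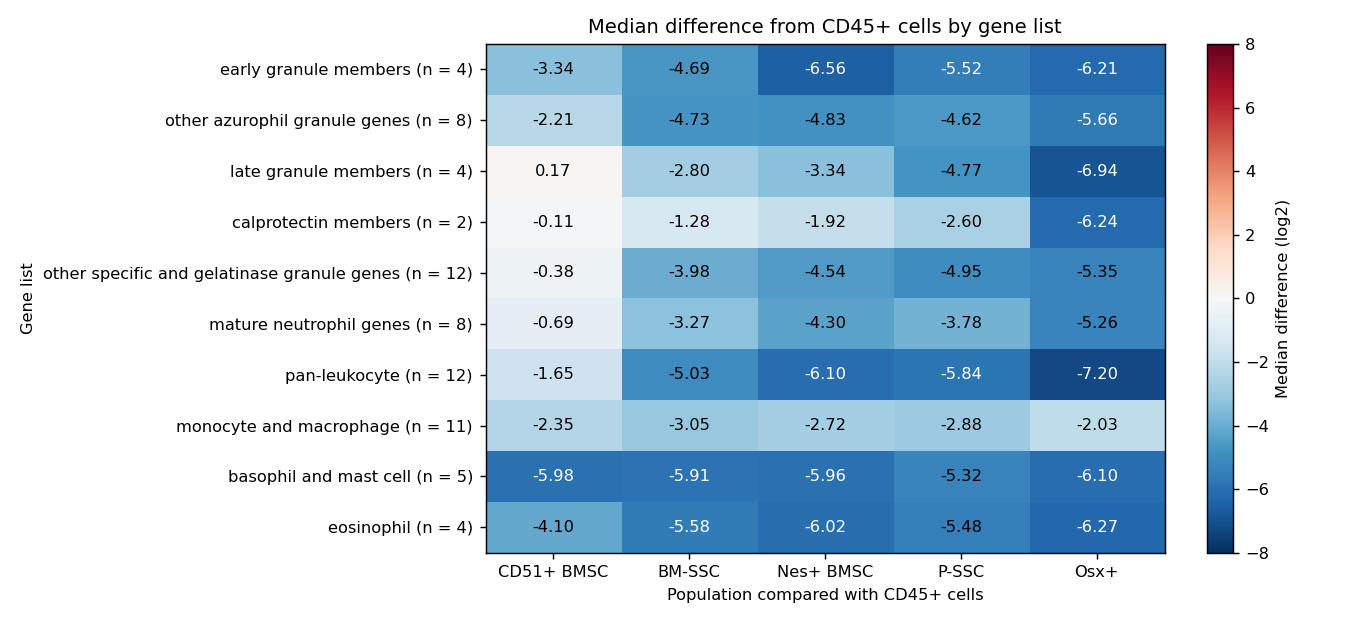
Median difference from CD45+ cells (log2) of each gene list (rows, with the number of genes measured) in each population (columns), blue for lower and red for higher. In CD51+ BMSCs the late members and calprotectin are at 0.17 and -0.11 and the early members at -3.34, while in Osx+ cells the granule lists all lie at or below -5.26.

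Of 9 listed transcription factors of granulocytes and other blood cells, 3 fell in CD51+ BMSCs against CD45+ cells, beside 2.9% of all probe sets. They were Gfi1 (-4.50), Irf8 (-4.45) and Cebpa (-1.79). Myb, a factor of immature blood cells, differed by -3.02, Klf4 by 2.10, Spi1, which encodes PU.1, by -1.68 and Cebpd by 1.88, and none of these passed. Klf4 read 12.47 and 12.46 and Cebpd 10.87 and 10.89 in Osx+ cells, so neither was particular to blood cells here. Cebpe was not analysed here.

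The genes most like the early members over the 6 population means, by Pearson's r with their mean centred profile, were St8sia4 (0.998), Gna15 (0.997), BC005624 (0.997), Ripor2 (0.996) and Was (0.996). Those most like the late members were Xdh (0.981), Hfe (0.981), Wfdc21 (0.980), Ptgir (0.979) and Srgn (0.978). With 6 points that share arrays these values are a description, and BC005624 ranged over only 0.68 log2 units. Among the members themselves r was 0.92 to 0.99 over the 6 pairs of early genes, 0.90 to 1.00 over the 15 pairs of late genes and 0.58 to 0.85 over the 24 pairs of an early and a late gene. These ranges without array 2 of both SSC populations were 0.80 to 0.98, 0.95 to 1.00 and 0.54 to 0.82. The genes most like the members then changed. Of the 5 named for the early members 0 were still among the 5 most alike, and of the 5 named for the late members 2 were (Xdh and Srgn).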

How the data were processed

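RNA of sorted mouse cells was measured on 11 Affymetrix arrays. The authors deposited log2 values after RMA background correction, normalization and probe set summary, and used limma for their comparisons; no software versions are given in the sources used here. All 11 value columns were mapped to a sample by their labels. Of 45101 probe sets, 64 controls were left out and 45037 were tested. Gene names came from the platform annotation, in which 34945 of these probe sets named 1 gene, 932 several and 9160 none.

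From these values a group-means model was fitted to all 11 arrays with limma 3.58.1 in R 4.3.3 (lmFit and eBayes), with Benjamini-Hochberg adjustment over all probe sets in each of 12 comparisons and a threshold of 0.05. The spread of each probe set was shared over populations, and that of the single Nes+ array was borrowed. The fit was tested on simulated data. Probe sets were compared by their differences between populations, and by level only in the rank of S100a8 and S100a9 on each array. The number of arrays limits the precision.

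All 10 members were named, with up to 4 genes per list by size of difference and the 5 genes most like the early and the late members. Ctsd, Mmp8, Padi4, Cebpa, Spi1 and Cebpd fall outside this rule and were named after their values were seen. The members, gene lists and array differences were chosen with earlier results of these data known, and the sequence motifs with the promoters in view. Correlations without array 2 of both SSC populations were added after seeing the data. Alternatives covered normalization, centring, filters, variance model, array weights, a replicate block and each array left out. List genes without a probe set naming them alone were not analysed here.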

Additional observations from a re-analysis of the deposited data

Results flagged for a closer look

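In 3 late genes CD51+ BMSCs went the opposite way from the other populations when compared with CD45+ cells. Both CD51+ arrays lay above both CD45+ arrays for Ltf (a difference of 0.31 on the log2 scale), Lcn2 (0.17) and Ngp (0.16), whereas every array of BM-SSCs, P-SSCs, Nes+ BMSCs and Osx+ cells lay below them. The difference between these effects was not tested here, and none of the 3 differences from CD45+ cells passed the limma test.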

How the results depend on the processing

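The direction of all 22 member calls was kept in 480 of 480 recomputations, but the number of members passing moved with the fit. Many of these recomputations, such as an unadjusted p, array weights or a fit of the compared populations alone, leave the difference itself unchanged. Their kept direction is therefore not a result. With an unadjusted p the counts against CD45+ cells were 9 in P-SSCs, 5 in BM-SSCs, 2 in CD51+ BMSCs and 5 in Nes+ BMSCs, those against Osx+ cells 2 in P-SSCs and 6 in BM-SSCs, and those against CD51+ BMSCs 2 in BM-SSCs and 6 in P-SSCs. When each fit held no arrays but those of its own pair of populations, the counts against CD45+ cells were 0 in P-SSCs and 4 in CD51+ BMSCs. Such a fit of the single Nes+ array takes its spread from the 2 CD45+ arrays alone, so its count is left out. With array weights they were 0 in P-SSCs, 1 in BM-SSCs, 4 in CD51+ BMSCs and 10 in Nes+ BMSCs, and 10 for CD51+ BMSCs against Osx+ cells. For P-SSCs against CD45+ cells, quantile normalization, median centring and a robust variance trend each gave 2, and that trend gave 2 for CD51+ BMSCs against Osx+ cells. Without array 2 of both SSC populations the counts against CD45+ cells were 4 in BM-SSCs, 3 in CD51+ BMSCs and 6 in Nes+ BMSCs, those against Osx+ cells 5 in P-SSCs and 6 in BM-SSCs, and those against CD51+ BMSCs 1 in BM-SSCs and 2 in P-SSCs. The cause was not tested. Unadjusted, 15086 of all 45037 probe sets passed in P-SSCs against CD45+ cells, 11003 in BM-SSCs and 7253 in CD51+ BMSCs, in either direction. In the fit of the CD45+ and CD51+ arrays alone 25% passed as lower. For the fit of the P-SSC and CD45+ arrays alone, array weights, normalization, centring and the variance trend the share of all probe sets is not given. Those counts therefore do not set the members apart from other probe sets.

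Leaving out 1 array at a time, the counts against CD45+ cells ran from 0 to 9 in P-SSCs, 0 to 5 in BM-SSCs, 0 to 1 in CD51+ BMSCs, 1 to 10 in Osx+ cells and 0 to 4 in Nes+ BMSCs. Against Osx+ cells they ran from 0 to 1 in P-SSCs and in BM-SSCs and 0 to 6 in CD51+ BMSCs, against CD51+ BMSCs from 0 to 7 in P-SSCs and 0 to 0 in BM-SSCs, and against BM-SSCs from 0 to 1 in P-SSCs and 0 to 0 in Nes+ BMSCs. Without either CD45+ array the count for Osx+ cells was 1, and without either CD45+ or either CD51+ array that for CD51+ BMSCs against CD45+ cells was 0. The upper end for P-SSCs against CD45+ cells came without P-SSC array 1. Only P-SSC array 2 was then left, whose ribosomal protein median was 7.25. The share of all probe sets is not given beside these counts.

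The early minus late value moved to -1.74 in P-SSCs, -2.41 in BM-SSCs, 1.11 in Osx+ cells and -3.08 on the Nes+ array with quantile normalization, to -0.49, -2.28, 1.11 and -3.08 with specific granule genes alone as late genes, and with medians to -1.55 in P-SSCs, 0.49 in Osx+ cells and -3.92 on the Nes+ array. Leaving out 1 array gave -1.40 to -1.15 in P-SSCs, -2.98 to -2.53 in BM-SSCs, -4.03 to -2.58 in CD51+ BMSCs, 0.69 to 0.94 in Osx+ cells and -3.66 to -3.40 on the Nes+ array. No member had another probe set to try.

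The correlation of array differences was 0.784 for BM-SSCs with P-SSCs and -0.267 to 0.012 for the other 9 pairs of populations. The array numbers were not taken to pair the samples. The arrays of BM-SSCs and P-SSCs thus shared a difference by array number, which the main fit did not take into account. With the array number as a replicate block, the Nes+ array was left out and P-SSCs against CD45+ cells gave 2 passing members. No other count moved by over 1.5 times under the block.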

Other observations

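Genes of other blood cells in CD51+ BMSCs moved in several directions against CD45+ cells, where 2.9% of all probe sets fell and 2.95% rose. Of 5 basophil and mast cell genes all 5 fell, among them the IgE receptor subunit gene Fcer1a by 6.97 and the mast cell protease gene Mcpt8, which fell by 6.58 on the log2 scale. Of 4 eosinophil genes 3 fell (Siglecf, -4.76, Epx, -4.28, and Prg2, -3.91). Of 11 monocyte and macrophage genes 5 fell, with the chemokine receptor gene Ccr2 at -4.58, and 2 rose, the complement genes C1qa (2.28) and C1qb (2.25). Of 6 erythroid genes 2 rose, Alas2, of heme synthesis (5.08), and Rhag (3.33), with limma adjusted p of 0.0147 and 0.021. These values come from the same arrays as the granule genes, and their part in the granule gene signal was not tested.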
